A study of Panonychus citri with 16 samples.

Results

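The comparison sets adult female Panonychus citri, the citrus red mite, of a population from Ramsar against those of a population from Sari. All libraries carrying either population label were taken, 4 of Ramsar and 4 of Sari, which is 8 of the 16 libraries of the series. Ramsar and Sari are towns in northern Iran, and the labels describe both populations as highly resistant to fenpyroximate. The remaining libraries, 4 of Lahijan (moderately resistant) and 4 of Rasht (the susceptible population), were used only to show where further populations stand. Each library was made from polyA RNA of a pool of 100 to 130 whole adult females, all reared on lemon leaves at 25 °C and 60% humidity. No treatment with the acaricide is given for any library. Ramsar and Sari are each a single population, so the place of origin cannot be told apart from any other property of that population.

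Spider mites pierce leaf cells and feed on their contents, and females that are not mated lay eggs that become haploid males. Fenpyroximate is a METI-I acaricide, a compound that stops respiration by blocking complex I of the mitochondrial electron transport chain. Resistance to such compounds in spider mites has been tied to changes in the target and to detoxifying enzymes, and populations may also differ for reasons that have no link to the acaricide. A pair of populations with the same response label shows how far expression differs where that label does not.

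Expression was measured for 17682 assembled contigs, called contigs here since the deposited identifiers give a population name and a number and no gene name. No function is therefore assigned to any contig. Levels are given as TPM, an abundance scaled for contig length and for the library. The 8 libraries held 9878618 to 13773146 estimated counts. Across 11887 tested contigs, log2 CPM, the count scaled to library size, correlated at r = 0.968 to 0.981 between Ramsar libraries, 0.975 to 0.985 between Sari libraries and 0.952 to 0.963 between a Ramsar and a Sari library, so every correlation within a population exceeded every one between them. These are correlations across contigs, which are not independent replicates.

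The 2 populations differed in a small share of the contigs. Of the 11887 tested, 371 were called, 3.12%, at an edgeR adjusted p under 0.05 and a log2 fold change of at least 1 in size. Ramsar was higher for 139 of them (1.17% of those tested) and lower for 232 (1.95%). The typical contig barely moved, with a median log2 fold change of 0.01 and a median size of 0.16 over all tested contigs, and 90% of them stayed under a size of 0.69. A size of at least 1 was reached by 619 contigs, or 5.21%. Calls higher in Ramsar had a median log2 fold change of 1.66 and calls lower in Ramsar one of -1.59. At a fitted size of at least 2, 46 calls were higher and 77 lower in Ramsar, and at 3 it was 23 and 33. Only at a size of at least 5 were more higher, 15 against 6. Fitted sizes of contigs at 0 counts in 1 population depend on the prior count. By the adjusted p alone, with no minimum size, 960 contigs passed (8.08%), 398 higher and 562 lower in Ramsar. When all 16 libraries shared one estimate of the spread, 203 contigs were called, and 382 when Rasht replicate 2 was left out of that model. Because RNA came from pools of whole mites, fewer mites or cells with a transcript and less of it per cell cannot be told apart.

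**Figure D1:**
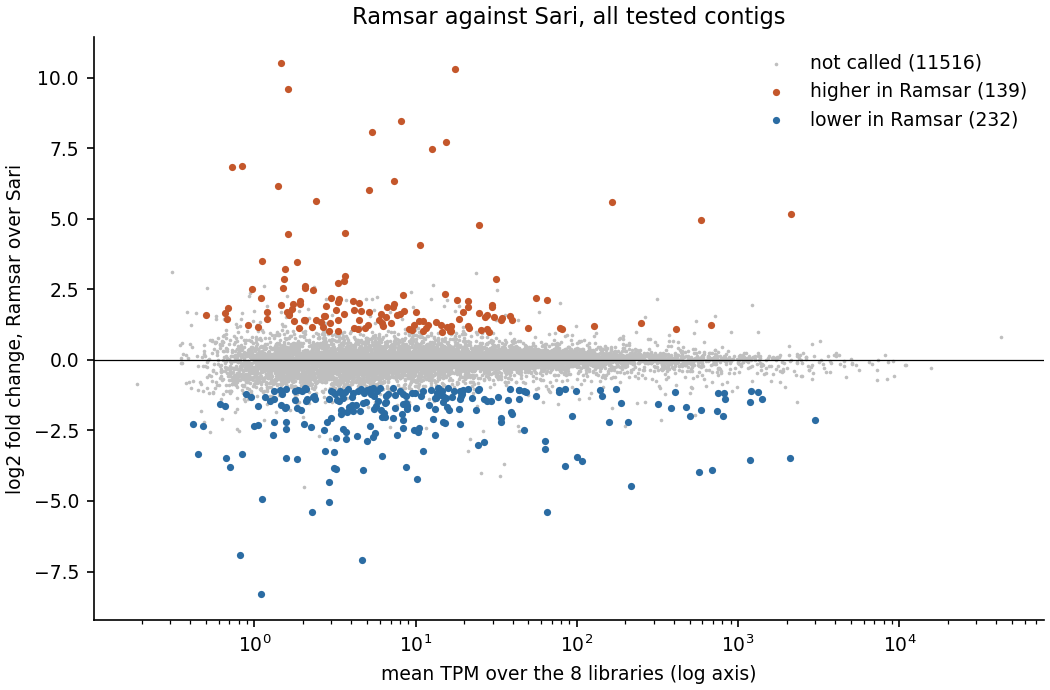
Mean TPM over the 8 libraries (log axis) against the log2 fold change of Ramsar over Sari for the 11887 tested contigs. The 139 calls higher in Ramsar are orange, the 232 lower are blue and the rest are grey; fitted values beyond about 8 in size belong to contigs at 0 counts in 1 population and depend on the prior count.

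Beside contigs with no counts at all in Sari, the largest differences in favour of Ramsar were contigs close to absent from Sari. Lahi_contig_3068 stood at 32.9, 38.2, 24.1 and 28.5 TPM in the Ramsar libraries and at 0, 0.156, 0.25 and 0.0763 TPM in the Sari libraries. Every Ramsar library lay far above every Sari library, with a log2 fold change of 7.72 ± 0.34 (SE) and an edgeR adjusted p of 3.1e-06. Rasht_contig_5023 had 21.7, 24.6, 31.2 and 23.1 TPM in Ramsar, against 0, 0.0758, 0.423 and 0 TPM in Sari. Its log2 fold change was 7.47 ± 0.49 (edgeR adjusted p = 3.1e-05), and 9.47 without Sari replicate 3, the Sari library with the most of it. Rasht_contig_6214 was evenly high in Ramsar, at 15.6, 14.3, 11.8 and 16.7 TPM, and stood at 0.133, 0.0678, 0.326 and 0.173 TPM in Sari (log2 fold change 6.34 ± 0.28, edgeR adjusted p = 3.1e-06). Rasht_contig_3383 followed with 13.4, 12.1, 6.43 and 8.44 TPM in Ramsar and 0.184, 0.0611, 0.262 and 0 TPM in Sari (log2 fold change 6.01 ± 0.45, edgeR adjusted p = 4e-05). These 4 contigs had some counts in Sari, but under 1 TPM in each Sari library. Libraries without overlap on log2 CPM were a condition for naming them. None of the 4 had whole counts in all 8 libraries, so some of their reads were divided among contigs. The part of shared reads in these differences was not tested.

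Rasht_contig_82 was less even. It had 184, 355.6, 404 and 350.8 TPM in Ramsar and 0.763, 0, 23.1 and 0.326 TPM in Sari, so that Sari replicate 3 alone held most of the Sari signal. With all 8 libraries its log2 fold change came to 5.6 ± 1.07 (edgeR adjusted p = 0.022), and without Sari replicate 3 it was 9.72 (edgeR adjusted p = 7.7e-05). The call was lost, with log2 fold changes of 5.18 to 5.56, without Ramsar replicate 2 (edgeR adjusted p = 0.056) and without Sari replicates 1, 2 or 4 (0.052, 0.055 and 0.058).

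The largest differences in favour of Sari given here are of calls with counts in both populations and a mean log2 CPM no lower than 2. Rasht_contig_96 stood at 16.5, 17.6, 9.18 and 34.4 TPM in Ramsar, against 444.8, 310.8, 325.7 and 567.9 TPM in Sari (log2 fold change -4.46 ± 0.39, edgeR adjusted p = 0.00036). Sari_contig_463 had 62, 104.3, 105.2 and 87.9 TPM in Ramsar and 965.8, 1330, 1903 and 973.8 TPM in Sari (log2 fold change -3.92 ± 0.32, edgeR adjusted p = 0.00017). Lahi_contig_915 had 14.6, 8.57, 17.1 and 6.95 TPM in Ramsar and 148.8, 177.4, 129.9 and 171 TPM in Sari (log2 fold change -3.77 ± 0.29, edgeR adjusted p = 0.00012). The groups did not overlap for any of these 3, which was a condition for naming them here. None of the 3 had whole counts in all 8 libraries. Lahi_contig_2057, with 0.29 to 0.817 TPM in the Ramsar libraries and 3.09 to 15.6 TPM in the Sari libraries, followed with a log2 difference of -3.9 ± 0.53 (edgeR adjusted p = 0.0025).

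Several contigs that were low in Ramsar peaked in Sari replicate 3. Lahi_contig_241 had 3.79, 3.88, 3.17 and 2.14 TPM in Ramsar and 31.2, 108, 304.2 and 63.2 TPM in Sari replicates 1 to 4 (log2 fold change -5.38 ± 0.9, edgeR adjusted p = 0.013), and limma-voom did not call it (adjusted p = 0.064). Rasht_contig_10807 had 0.664, 1.26, 1.9 and 0.692 TPM in Ramsar and 9.09, 16.8, 40.4 and 10.7 TPM in Sari (log2 fold change -4.23 ± 0.66, edgeR adjusted p = 0.0048). Sari_contig_469 had 79.9, 85.1, 100.4 and 25.3 TPM in Ramsar and 240.9, 781.3, 2802 and 430 TPM in Sari. In all 3, Sari replicate 3 held the highest value and Sari replicate 1 the lowest Sari value. The log2 fold change of Sari_contig_469 was -3.97 ± 0.93 (edgeR adjusted p = 0.045). That call was lost without Ramsar replicates 1, 2, 3 or 4 (edgeR adjusted p = 0.073, 0.12, 0.097 and 0.1) and without Sari replicates 2 or 4 (0.082 and 0.058), while without Sari replicate 3 the log2 fold change was -2.76 and the call held. Among 241 calls with a mean log2 CPM of at least 2, Sari replicate 3 lay at least 1 log2 unit above the other 3 Sari libraries for 6 contigs, and each of the other 7 libraries lay that far above its own group for 0 to 2. Below its own group by as much, Sari replicate 3 lay for 3 contigs and each of the other 7 libraries for 1 to 3.

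Sari_contig_7570 was called lower in Ramsar by a narrow margin (log2 fold change -4.34 ± 1, edgeR adjusted p = 0.04). Ramsar replicate 4 held 1.07 TPM and the other 3 Ramsar libraries under 0.0001 TPM, against 5.52, 7.77, 5 and 3.99 TPM in Sari. Without Ramsar replicate 4 it came to -10.79 on the log2 scale (edgeR adjusted p = 0.00017). The call was lost without Ramsar replicates 1, 2 or 3 (edgeR adjusted p = 0.051, 0.092 and 0.078) and without Sari replicates 1, 2 or 4 (0.077, 0.11 and 0.083). Over all alternatives its adjusted p ran from 0.00017 to 0.47.

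**Figure D2:**
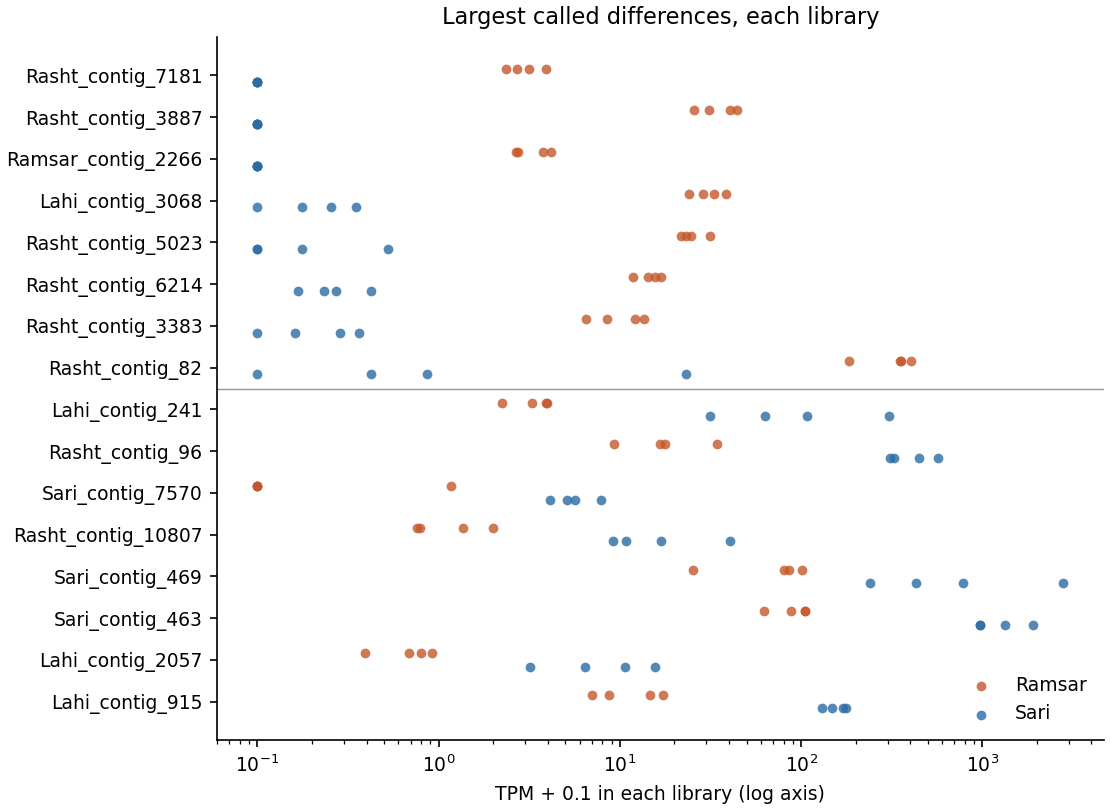
TPM + 0.1 (log axis) in each library for the 8 contigs with the largest called log2 fold change (above the line) and the 8 with the smallest (below it), among calls without overlap and with a mean log2 CPM of at least 2. None of these contigs had whole counts in all 8 libraries. Orange points are the 4 Ramsar libraries and blue points the 4 Sari libraries; the Sari points of Rasht_contig_82 and of Sari_contig_469 are spread widest.

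Calls were found at all levels of abundance. Of the contigs with a mean under 1 TPM, 19 of 421 were called (4.51%), and of those between 1 and 10 TPM, 202 of 4328 (4.67%). Between 10 and 100 TPM the count was 114 of 5800 (1.97%), and between 100 and 1000 TPM it was 28 of 1180 (2.37%). Above 1000 TPM, 8 of 158 were called (5.06%), 1 higher and 7 lower in Ramsar. By the adjusted p alone, 20, 380, 449, 92 and 19 contigs passed at these levels, from the rarest to the most abundant. On that rule the rarest contigs had the lowest share, so the order of the levels depended on the minimum size. The median size of the log2 fold change over all tested contigs of each level was 0.47, 0.25, 0.13, 0.13 and 0.16, from the rarest to the most abundant. In TPM terms the 371 calls made up 2.02% ± 0.0926 of the RNA in Ramsar and 3.8% ± 0.849 in Sari (SD, n = 4 each). The 232 calls lower in Ramsar held 1.03% ± 0.0921 of the TPM in Ramsar and 3.63% ± 0.872 in Sari, where Sari replicate 3 reached 4.89%. The calls define these shares, which are given as a description.

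Among abundant calls, Rasht_contig_37 was the most abundant one higher in Ramsar. It stood at 5671, 3593, 3439 and 3828 TPM in Ramsar, against 105.1, 215.5, 66.2 and 54.6 TPM in Sari. Its log2 fold change was 5.18 ± 0.45 (edgeR adjusted p = 0.00022), its counts were whole in all 8 libraries, and its call held with each library left out. Rasht_contig_737 had 1421, 1032, 1009 and 1089 TPM in Ramsar and 67.5, 67.4, 3.97 and 2.15 TPM in Sari (log2 fold change 4.94 ± 0.86, edgeR adjusted p = 0.015). Sari replicates 1 and 2 thus held far more of it than Sari replicates 3 and 4, while the Ramsar libraries were close together. The other 3 of the 5 most abundant calls higher in Ramsar had smaller log2 fold changes. Rasht_contig_93 had 831.4 to 1128 TPM in Ramsar and 279.8 to 479.8 TPM in Sari, and its log2 difference was 1.22 ± 0.16 (edgeR adjusted p = 0.0011). Rasht_contig_74 had 301.9 to 438.6 TPM in Ramsar and 112.4 to 162.8 TPM in Sari, and its log2 difference was 1.32 ± 0.17 (edgeR adjusted p = 0.0011). Rasht_contig_1886 had 475.4 to 632.6 TPM in Ramsar and 176.7 to 325.6 TPM in Sari, and its log2 difference was 1.09 ± 0.16 (edgeR adjusted p = 0.0026), and without Sari replicate 3 it was 0.97, under the minimum of 1. In the model of all 16 libraries it was not called (edgeR adjusted p = 0.5), and without Rasht replicate 2 that model called it (0.00026).

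Of the 5 most abundant calls lower in Ramsar, Lahi_contig_246 had the largest difference. It held 304.9, 404.4, 277.8 and 460.6 TPM in Ramsar and 2972, 3711, 5603 and 2933 TPM in Sari (log2 fold change -3.49 ± 0.28, edgeR adjusted p = 1e-04). Rasht_contig_65 held 794.1, 1480, 1194 and 1125 TPM in Ramsar and 3349, 3560, 7595 and 4810 TPM in Sari (log2 fold change -2.13 ± 0.32, edgeR adjusted p = 0.0037). Ramsar_contig_1459 held 950.6, 716.3, 701.3 and 902 TPM in Ramsar and 2183, 1882, 1828 and 2151 TPM in Sari (log2 fold change -1.38 ± 0.1, edgeR adjusted p = 3.1e-05). It carries the name of Ramsar and was lower there. These 3 calls held with each library left out.

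Lahi_contig_900 and Lahi_contig_521, both abundant, were called near the threshold. Lahi_contig_900 had 1346, 1010, 593.8 and 514 TPM in Ramsar and 1538, 1665, 2096 and 1937 TPM in Sari (log2 fold change -1.14 ± 0.27, edgeR adjusted p = 0.033). Without Ramsar replicate 4 its log2 fold change was -0.95. The edgeR adjusted p was 0.058 and 0.085 without Ramsar replicates 2 and 3, and 0.067, 0.072 and 0.087 without Sari replicates 2, 3 and 4. Lahi_contig_521 had 648.6 to 951.9 TPM in Ramsar and 943.1 to 2024 TPM in Sari, so that its groups overlapped (log2 fold change -1.1 ± 0.25, edgeR adjusted p = 0.025). Its call was lost without Ramsar replicates 1, 3 or 4 (edgeR adjusted p = 0.07, 0.055 and 0.068) and without Sari replicates 2, 3 or 4 (0.076, 0.053 and 0.057). The model of all 16 libraries called neither (edgeR adjusted p = 0.29 for Lahi_contig_900 and 0.18 for Lahi_contig_521), and without Rasht replicate 2 it called both (0.0088 and 0.038).

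The 3 most abundant contigs of all were not called. Ramsar_contig_97 held 52174, 58010, 67958 and 40407 TPM in Ramsar and 33255, 29535, 25982 and 31977 TPM in Sari. Its groups did not overlap, and its log2 fold change of 0.81 ± 0.19 passed the adjusted p (edgeR adjusted p = 0.029) and not the minimum size. Sari_contig_65, with means of 14445 ± 2331 TPM in Ramsar and 16987 ± 2227 TPM in Sari (SD, n = 4 each), differed by -0.29 ± 0.17 on the log2 scale (edgeR adjusted p = 0.35). Rasht_contig_31 stood at 10397 ± 828 and 11539 ± 2192 TPM in Ramsar and in Sari (log2 fold change -0.19 ± 0.16, edgeR adjusted p = 0.54).

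The population in a contig's name moved with the direction of the call. Of 64 calls among the 1528 tested contigs named for Ramsar, 56 were higher in Ramsar and 8 lower. Of 110 calls among the 1923 named for Sari, 2 were higher in Ramsar and 108 lower. Contigs with the prefix Lahi, taken here as Lahijan, gave 19 higher and 68 lower in Ramsar among 2142 tested, and those named for Rasht gave 62 higher and 48 lower among 6294. The share called was 4.19%, 5.72%, 4.06% and 1.75% for the names Ramsar, Sari, Lahijan and Rasht. The median log2 fold change over all tested contigs of each name was 0.03, -0.18, -0.03 and 0.04, and 1362 of the 1923 tested contigs named for Sari lay below 0. Above 0 lay 825 of the 1528 named for Ramsar, 978 of the 2142 named for Lahijan and 3799 of the 6294 named for Rasht. How contigs came by their names is unknown, and the naming may itself set the direction of these calls, which was not tested. The count of 2 for Sari names was 10 without Ramsar replicate 1, 5 without Sari replicate 2 and 5 without Sari replicate 3.

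Fractional counts also moved with the calls. An estimated count is fractional where reads were divided among contigs. Contigs with fractional counts made up 313 of the 371 calls (84.4%) and 6546 of the 11887 tested (55.1%). Of the 5341 contigs with whole counts in all 8 libraries, 58 were called (1.09%), 27 higher and 31 lower in Ramsar, and of the 6546 with fractional counts 313 (4.78%), 112 higher and 201 lower. Among contigs with whole counts, calls named for Ramsar were 7 higher and 0 lower in Ramsar, of 315 tested. Those named for Sari were 2 higher and 11 lower, of 429 tested. Lahijan names gave 7 higher and 8 lower of 618, and Rasht names 11 higher and 12 lower of 3979. Relative length, taken as counts per TPM and scaled to the median tested contig, had a median of 0.791 among calls and 1.00 over all tested contigs. The part that naming, shared reads and contig length have in the calls was not tested.

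**Figure D3:**
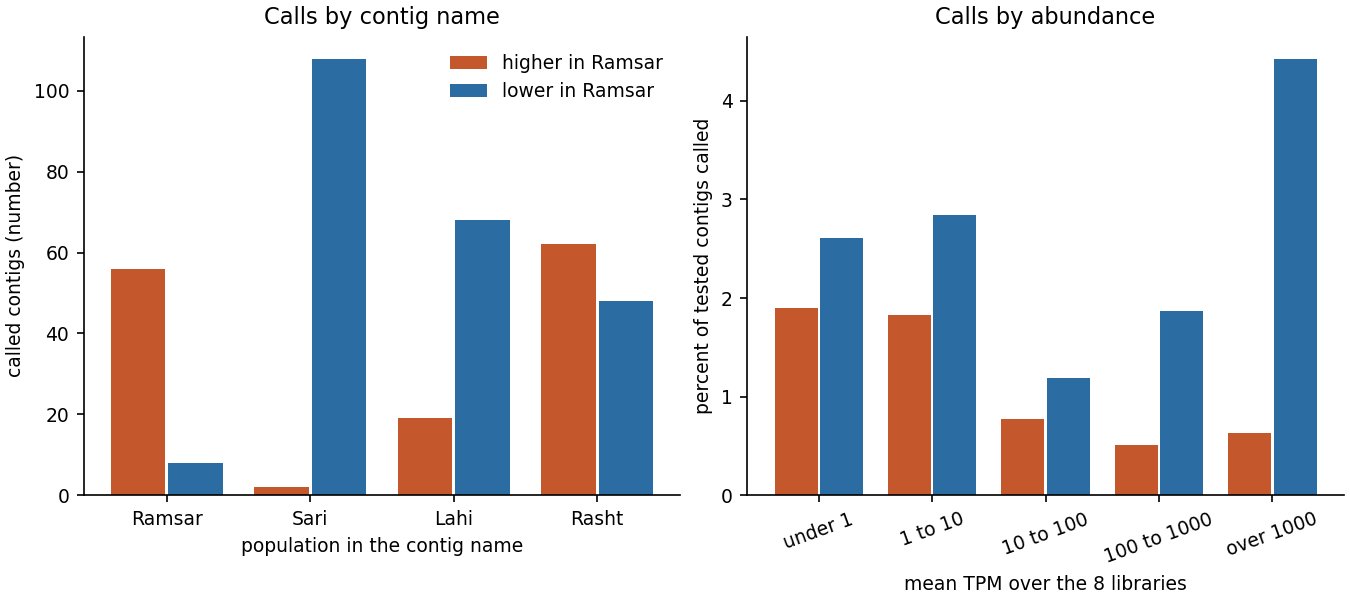
Left, number of called contigs by the population in the contig name, higher in Ramsar (orange) and lower in Ramsar (blue): 56 and 8 for Ramsar names, 2 and 108 for Sari names. Right, percent of tested contigs called at each level of mean TPM; above 1000 TPM, 0.633% were higher and 4.43% lower in Ramsar.

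Few contigs were present in one population and absent from the other. A contig was taken as on with at least 10 estimated counts in each of the 4 libraries and as off with under 0.5 in each. Of the 17682 contigs, 7 were on in Ramsar and off in Sari (0.0396%), and 2 were off in Ramsar and on in Sari (0.0113%). All 9 were among the 371 calls. Since a count of 0 gives no finite fold, folds are lower bounds set against 3 counts over the 4 off libraries, and cover counting error only.

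Rasht_contig_3887 had the highest level of the contigs on in Ramsar, at 25.5, 44.1, 40.5 and 31.1 TPM from 118 to 187 counts a library, and 0 counts in all 4 Sari libraries. The lower bound of the fold is 223, with Ramsar higher (edgeR adjusted p = 8.2e-05). In Lahijan it stood at 5.71 ± 1.98 TPM and in Rasht at 43 ± 8.21 TPM (SD, n = 4 each). Rasht_contig_7181, with 2.62, 2.24, 3.07 and 3.82 TPM in Ramsar and 0 counts in Sari, was higher in Ramsar by at least 263-fold (edgeR adjusted p = 4e-05). Ramsar_contig_2266 held 3.65, 2.57, 2.66 and 4.09 TPM in Ramsar and 0 counts in Sari, and was higher there by at least 143-fold (edgeR adjusted p = 5.1e-05). All 3 had 384 to 708 estimated counts over the Ramsar libraries. None of the 3 had whole counts in all 8 libraries, and the part of shared reads was not tested.

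Ramsar_contig_8904 was the most even of the 5 most abundant, at 14.4, 16.7, 17.4 and 16.7 TPM in Ramsar and 0 counts in Sari (at least 63.7-fold higher, edgeR adjusted p = 0.00012). Lahi_contig_5192 had 14.5, 12.3, 6.28 and 9.91 TPM in Ramsar and 0 counts in Sari (at least 49.4-fold higher, edgeR adjusted p = 0.00048), and stood at 19 ± 4.33 TPM in Lahijan and 18.2 ± 5.27 TPM in Rasht. Ramsar_contig_15290 and Ramsar_contig_10989, the remaining contigs on in Ramsar, held 57 and 54.7 counts over the 4 Ramsar libraries. All 7 had counts in every Rasht library, and all but Ramsar_contig_15290 and Ramsar_contig_10989 had them in every Lahijan library. None of the 7 was thus found in Ramsar alone.

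In the other direction, Sari_contig_11641 had 0 counts in all Ramsar libraries and 12.5, 9.91, 6.83 and 7.94 TPM in Sari, from 69 counts in all, and was at least 20.6-fold lower in Ramsar (edgeR adjusted p = 0.0012). It also had no counts in the 4 Rasht libraries and in 2 of the 4 Lahijan libraries. Sari_contig_1289 had 0 counts in Ramsar and 3.95, 1.95, 0.785 and 2.13 TPM in Sari, at least 48-fold lower in Ramsar (edgeR adjusted p = 0.0045), and stood at 2.27 ± 0.686 TPM in Lahijan and 0.675 ± 0.672 TPM in Rasht. The count of 2 depended on the libraries: it was 5 and 6 without Ramsar replicates 1 and 4, and 4 and 5 without Sari replicates 1 and 4. At least 20 counts in each library left 4 contigs on in Ramsar and 0 on in Sari. With whole counts only, 1 remained in each direction, Ramsar_contig_15290 and Sari_contig_11641.

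Calls were chosen from these same libraries by size and adjusted p, which nearly fixes that their groups do not overlap. The 4 Ramsar and 4 Sari libraries did not overlap on log2 CPM for 366 of the 371 calls (98.7%), and for 15.5% of all tested contigs, with Ramsar entirely above Sari for 6.79% and entirely below for 8.67%. Over the calls the median gap between the nearest libraries of both groups was 0.77 log2 units. Over all tested contigs it was -0.21, where a negative gap is an overlap. The gap was at least 1 for 128 calls and for 129 of the 11887 tested contigs. With each library left out in turn, 310 to 409 contigs were called and 279 to 318 of the 371 remained. In all 8 such fits 229 calls remained (61.7%), 96 higher and 133 lower in Ramsar, with a median size of 1.86. The 142 that were lost at least once had a median size of 1.27.

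Pools of Ramsar differed more among themselves than pools of Sari. The median SD of log2 CPM over 4 libraries was 0.202 in Ramsar and 0.157 in Sari, and it was the larger one in Ramsar for 7522 of 11887 contigs (63.3%). The biological coefficient of variation, the spread beyond counting, was 18.2% in Ramsar and 14.7% in Sari when each was fitted alone. This difference was not tested. Among calls the wider spread went with the lower level. The median SD was 0.308 in Ramsar and 0.394 in Sari for calls higher in Ramsar, and 0.434 in Ramsar and 0.289 in Sari for calls lower in Ramsar. Rare contigs had a larger SD over all tested contigs too. It was 0.524 in Ramsar and 0.471 in Sari under 1 TPM, against 0.152 and 0.114 between 10 and 100 TPM. The part of counting noise in the spread of the calls was not tested.

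**Figure D4:**
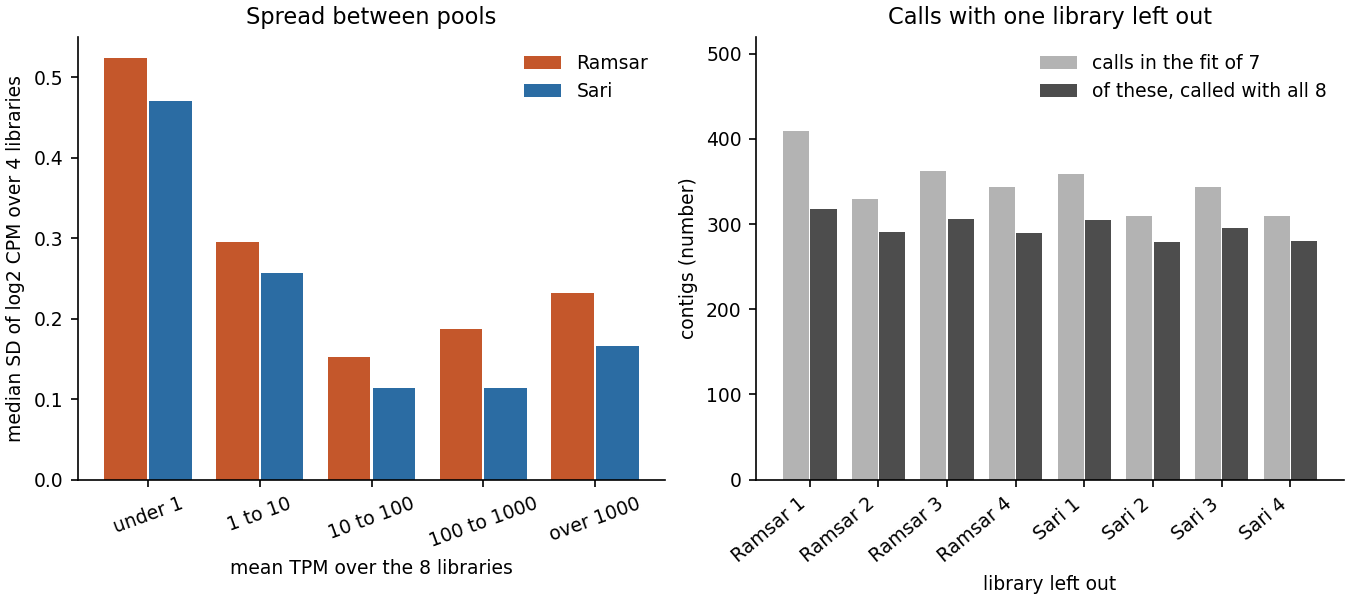
Left, median SD of log2 CPM over the 4 libraries of Ramsar (orange) and Sari (blue) at each level of mean TPM; Ramsar is the higher bar at all 5 levels, 0.152 against 0.114 between 10 and 100 TPM. Right, number of calls with each library left out (light, 310 to 409) and how many of them are among the 371 calls of all 8 libraries (dark, 279 to 318).

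Some calls were almost constant within each population. Sari_contig_7053 held 3.41, 3.41, 2.84 and 2.56 TPM in Ramsar and 16.3, 17.1, 16.6 and 16.2 TPM in Sari, with whole counts throughout (log2 fold change -2.49 ± 0.16, edgeR adjusted p = 2e-05). Rasht_contig_2485 held 9.1, 8.72, 7.3 and 8.65 TPM in Ramsar and 19.6, 19.8, 17 and 18 TPM in Sari (log2 fold change -1.18 ± 0.07, edgeR adjusted p = 1.2e-05). Lahi_contig_3260 held 30, 29.1, 29.1 and 35.9 TPM in Ramsar and 66.2, 67.3, 61.8 and 68.6 TPM in Sari (log2 fold change -1.13 ± 0.08, edgeR adjusted p = 3e-05). The 3 most constant calls higher in Ramsar were alike in size. Rasht_contig_2265 held 56.5, 53.8, 48.9 and 44 TPM in Ramsar and 19.5, 17.2, 17.3 and 17.4 TPM in Sari (log2 fold change 1.47 ± 0.09, edgeR adjusted p = 1.2e-05). Ramsar_contig_4685 averaged 14 ± 1.94 TPM in Ramsar libraries and 5.67 ± 0.494 TPM in Sari libraries, and Rasht_contig_1607 averaged 29.5 ± 2.63 TPM in Ramsar libraries and 13.2 ± 1.66 TPM in Sari libraries (SD, n = 4 each; log2 fold changes 1.25 ± 0.11 and 1.12 ± 0.09, edgeR adjusted p = 0.00012 and 7e-05). All 6 calls held with each library left out, and Rasht_contig_1607 was not called in the model of all 16 libraries (edgeR adjusted p = 0.13), though it was without Rasht replicate 2 (7.2e-06).

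At the other end, some contigs were on and off among pools of a single population. Rasht_contig_447 held 14.3, 39.6, 0.000878 and 7.49 TPM in Ramsar and 41.3, 13.8, 13.2 and 53.2 TPM in Sari. Rasht_contig_5682 held 26.1, 50.2, 0.0356 and 16.6 TPM in Ramsar and 24.1, 17.1, 22.7 and 29.1 TPM in Sari. Ramsar replicate 3 thus lacked both of them almost wholly, while every other library held at least 7 TPM. Lahi_contig_7619 was carried in Ramsar mainly by replicate 2, with 0.000146, 38.2, 0 and 2.8 TPM, against 42, 23, 7.72 and 21.5 TPM in Sari.

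In Sari the widest spread was that of Rasht_contig_738, with 96.7, 150.3, 267.8 and 0 TPM, against 528.4, 327.5, 73.2 and 11.3 TPM in Ramsar. Ramsar_contig_438 was near 0 in Sari replicate 2 and held 12, 5.64 and 17 TPM in Sari replicates 1, 3 and 4, against 4.36 to 14.8 TPM in Ramsar. Rasht_contig_4697 was near 0 in Sari replicate 3 and held 6.74, 6.12 and 2.84 TPM in the other Sari libraries, against 4.02 to 9.4 TPM in Ramsar. All 6 contigs had fractional counts, their groups overlapped, and none was called (edgeR adjusted p = 0.6 to 0.97). Their part in shared reads was not tested.

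**Figure D5:**
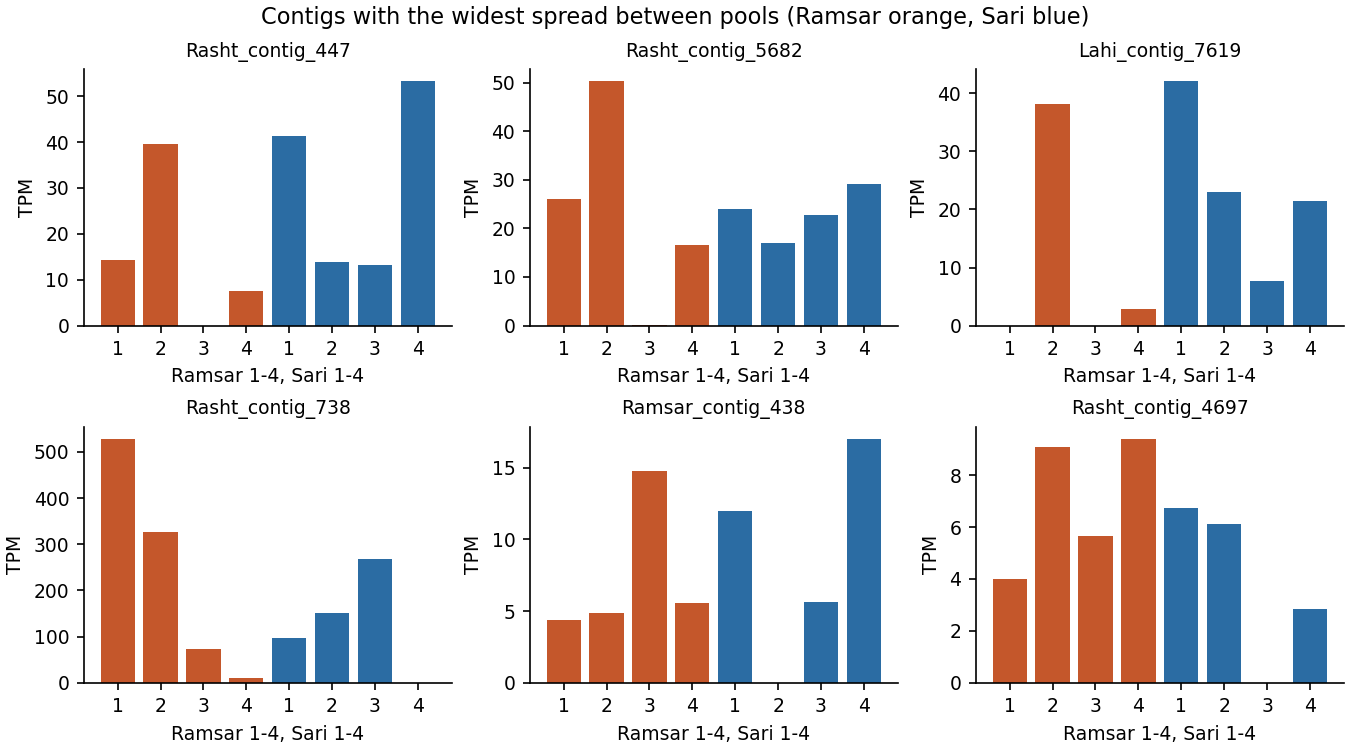
TPM in each library, Ramsar replicates 1 to 4 (orange) then Sari replicates 1 to 4 (blue), for the 3 contigs with the largest SD of log2 CPM in Ramsar (top) and the 3 in Sari (bottom). Each contig has at least 1 library at or near 0 beside libraries of the same population with several TPM or more.

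Lahijan and Rasht show where the calls lie among further populations. On TMM-scaled log2 CPM of all 16 libraries, Rasht was nearer to Ramsar than to Sari for 274 of the 371 calls (73.9%) and for 56.5% of all tested contigs. With Rasht replicate 2 left out the shares were 74.4% and 56.4%. Lahijan was nearer to Ramsar for 157 calls (42.3%) and for 54.2% of all tested contigs. Both populations were nearer to Ramsar for 129 calls, 34.8% of the calls and 40.8% of all tested contigs. Both were nearer to Sari for 69 calls, 18.6% of the calls and 30.1% of all tested contigs. For 145 calls Rasht was nearer to Ramsar and Lahijan nearer to Sari, 39.1% of the calls and 15.8% of all tested contigs. Levels of single abundant calls are given without placing them among the 145. Rasht_contig_37 stood at 4133 ± 1038 TPM in Ramsar, 110 ± 73.4 in Sari, 658 ± 244 in Lahijan and 5157 ± 1552 in Rasht. Lahi_contig_246 stood at 362 ± 85.4, 3805 ± 1251, 911 ± 260 and 180 ± 120 TPM in the same order (SD, n = 4 each). In Lahijan and in Rasht it was thus nearer to Ramsar. No test was made of these shares, since the Ramsar and Sari values that enter them also chose the calls.

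None of 4 whole-library values passed the test on the scale first used. After thinning each library to the counts of the smallest, 15150 to 15463 contigs had at least 1 count in Ramsar and 15378 to 15541 in Sari, a mean difference of -163 (exact two-sided permutation test over 70 splits, p = 0.086, adjusted over 4 values 0.11). Without thinning, 15150 to 15702 contigs had a count in Ramsar and 15486 to 15839 in Sari. The 100 most abundant contigs took 39% ± 0.945 of the TPM in Ramsar and 39.5% ± 1.91 in Sari (SD, n = 4 each; exact permutation p = 0.69, adjusted 0.69). Contigs named for Ramsar took 12.6% to 14.7% of the TPM in Ramsar and 11.4% to 11.9% in Sari (exact permutation p = 0.029, adjusted 0.057), higher in all 4 Ramsar libraries. Contigs named for Sari took 11.2% to 12% in Ramsar and 12.8% to 14.8% in Sari (exact permutation p = 0.029, adjusted 0.057), lower in all 4 Ramsar libraries. How the contigs came by their names is unknown. If each was named for the population whose reads built it, the direction of both name shares may have been fixed beforehand. Tests of the name shares therefore cannot tell a difference in expression from the naming, and none is read from them. The smallest p that 4 against 4 libraries can give is 0.0286, and neither name share passed 0.05 after adjustment. Without Ramsar replicate 1 both did, with differences of 2.08 and -1.93 percentage points, Ramsar minus Sari, and so did the contigs detected, at -222 (exact permutation, adjusted p = 0.038 each). With all 8 libraries the differences of the name shares were 2.12 and -1.9 points, so they hardly moved. As shares of the estimated counts instead of TPM, all 3 shares passed, with differences of -3.5 points for the 100 most abundant contigs, 0.83 for Ramsar names and -1.67 for Sari names (exact permutation, adjusted p = 0.038 each). The adjusted p of the permutation test is 0.057 where the name shares alone reach the smallest p. It is 0.038 where 3 of the 4 values do. In these settings, whether a name share passed thus depended on the other values and does not show a change in that share. Without Sari replicates 1, 2, 3 or 4 neither name share passed (exact permutation, adjusted p = 0.11 each).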

How the data were processed

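RNA-seq of whole adult females was analysed from 1 deposited table. The estimated counts deposited by the authors are unscaled, need not be whole, and were rounded here before testing. The TPM values deposited by the authors are scaled for length within each library. The tools named per the submitters' processing notes, with no role assigned, were limma 3.43.9, edgeR 3.20.9, sleuth 0.29.0, kallisto, FastQC 0.11.4 and R 3.4.4; the origin of the contigs is not given in the sources used here. Of the 17682 identifiers, 0 matched the RefSeq gene table, so no gene lists could be used.

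The 4 Ramsar and 4 Sari libraries (9878618 to 13773146 estimated counts) were fitted alone with edgeR 4.0.16 in R 4.3.3, using TMM factors, filterByExpr and the robust quasi-likelihood test with Benjamini-Hochberg adjustment over 11887 contigs, which held 99.9% of the counts. SEs were taken as the size of the log2 fold change over the root of the F statistic. Log2 CPM used a prior count of 2, and whole means within 0.001. Named contigs were the 8 largest and 8 smallest log2 fold changes among calls without overlap and with a mean log2 CPM of at least 2, the 5 most abundant calls each way, the on/off contigs (5 each way at most, with the other 2 named to complete the count), the 3 calls each way with the smallest and the 3 contigs of each population with the largest spread, and the 3 most abundant contigs. Members and rules were chosen with earlier results of these data known.

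Replication is biological per the labels, so p-values set a difference between Ramsar and Sari against the spread between pools. They speak for further pools of these populations and not for the variation among populations. No pair of replicates agreed within counting noise (chi-square per degree of freedom 9.81 to 45). DESeq2 1.42.0, limma-voom (limma 3.58.1) and further settings were alternatives.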

Additional observations from a re-analysis of the deposited data

Results flagged for a closer look

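In 91 sets of 4 libraries (the TPM of a named contig in 1 population, or a whole-library value), 7 had a highest or lowest library far from the other 3. Chance alone flags about 5% of such sets, a rate that does not apply to contigs named for their spread. Of those flagged, Lahi_contig_7619 was named for its wide spread in Ramsar and Ramsar_contig_438 for that in Sari. Rasht_contig_2265 and Lahi_contig_3260 were named for a small spread. Rasht_contig_82 held 23.1 TPM in Sari replicate 3 and at most 0.763 TPM in the other Sari libraries. Sari_contig_7570 held 1.07 TPM in Ramsar replicate 4 and almost none in the other Ramsar libraries. Lahi_contig_7619 held 38.2 TPM in Ramsar replicate 2, against 0 to 2.8 TPM in the others. Ramsar_contig_438 held 14.8 TPM in Ramsar replicate 3, against 4.36 to 5.56 TPM. Rasht_contig_31 held 8274 TPM in Sari replicate 3, below the 12322 to 12963 TPM of the other Sari libraries. Rasht_contig_2265 held 19.5 TPM in Sari replicate 1, against 17.2 to 17.4 TPM, and Lahi_contig_3260 held 35.9 TPM in Ramsar replicate 4, against 29.1 to 30 TPM; both gaps were small beside the difference between the populations.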

How the results depend on the processing

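The 371 calls (139 higher and 232 lower in Ramsar) became 203 (85 and 118) with all 16 libraries in one model, of which 193 were among the 371, and 382 when Rasht replicate 2 was left out of that model. The adjusted p alone gave 960 (398 and 562), a log2 fold change of at least 2 gave 123 (46 and 77), and contigs with whole counts gave 58 (27 and 31). Other scalings, other filters, DESeq2 and limma-voom gave 352 to 438. Leaving out each library gave 310 to 409 calls, 125 to 177 higher and 180 to 233 lower. Replicate numbers did not pair the samples (correlations of deviations -0.0634 to 0.0588 for shared numbers), and with the replicate number as a block 314 contigs were called.

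The contigs on in Ramsar numbered 4 at 20 counts, 1 with whole counts and 7 to 10 with each library left out. Those on in Sari numbered 5 at 5 counts, 0 at 20 counts, 1 with whole counts and 2 to 6 with each library left out. For shares of estimated counts instead of TPM, the differences of Ramsar minus Sari were -3.5 percentage points for the 100 most abundant contigs, 0.83 for contigs named for Ramsar and -1.67 for those named for Sari (exact permutation, adjusted p = 0.038 each). With each library left out these differences on TPM were -0.963 to 0.392, 1.84 to 2.52 and -2.14 to -1.47, and the difference in contigs detected was -222 to -118. Without Ramsar replicate 1 the 2 name shares and the contigs detected passed 0.05 (exact permutation, adjusted p = 0.038 each), and the share of the 100 most abundant contigs was 0.392 points higher in Ramsar without Sari replicate 3. There and on estimated counts, whether a name share passed depended on how many of the other values reached the smallest p. Without Sari replicates 1, 2, 3 or 4 neither name share passed (exact permutation, adjusted p = 0.11 each). The naming of contigs may itself set the direction of the name shares, so no difference in expression is read from them.

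Of 612 refits of the 36 named contigs that were called, 571 kept the call and 41 lost it, with no change of direction. Of 153 refits of the 9 that were not called, 6 turned direction: Rasht_contig_5682 (-0.07) gave 0.33, 0.07 and 0.05 without Ramsar replicates 3 and 4 and Sari replicate 4 (-0.79 to 0.33 with each library left out), and Ramsar_contig_438 (-0.23) gave 1.5 with limma-voom, 0.18 with the replicate block and 0.31 without Sari replicate 4 (-0.88 to 0.31 with each library left out). The 2 calls named for Sari and higher in Ramsar were 5 with DESeq2 and 4 with limma-voom, and the 8 named for Ramsar and lower there were 17 with DESeq2. The causes were not tested.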

Other observations

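Contigs off in 1 of the populations mostly held few counts in the other. In Ramsar 704 contigs had under 0.5 estimated counts in each library, and in Sari 636 had; 319 were off in both. Of those off in Ramsar, 50 had at least 1 count in each Sari library, and of those off in Sari, 27 had at least 1 count in each Ramsar library. The median sum of counts was 4 over the Sari libraries for contigs off only in Ramsar, and 3.34 over the Ramsar libraries for contigs off only in Sari.

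After the mean of each population was subtracted, the profile of Ramsar replicate 1 was most like that of Sari replicate 3 (r = 0.199 across contigs), and that of Ramsar replicate 4 was least like it (r = -0.164). Since deviations within a population sum to 0, a positive correlation of 1 library makes negative ones likelier in the others. The labels give no batch that these libraries share.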
